A study of Homo sapiens with 12 samples.

Results

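The genes described here are the protein-coding genes of chromosome 13 that were expressed in SUDHL6 cells, followed in the order of their positions. SUDHL6 and SUDHL16 are lines of diffuse large B-cell lymphoma (DLBCL), a cancer of mature B cells. A gene was a member if its mean over the 6 SUDHL6 libraries was at least 5 CPM (the count per 1000000 counts of the library). Of the 317 protein-coding genes of the chromosome in GENCODE 44 (GRCh38), 162 were members, 147 were under the minimum, and 8 were left out by name, 7 of which reached the minimum. Over all chromosomes, 9461 protein-coding genes reached it, of 60675 identifiers counted. Chromosome 13 was chosen by its SUDHL6 values, because its genes differed between resistant and parental SUDHL6 cells, so every SUDHL6 ratio is given as a description and without a test.

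Total RNA was sequenced from 4 groups of 3 libraries. Parental SUDHL6 and parental SUDHL16 cells were compared with a resistant derivative of the same line, grown under slowly rising doses of venetoclax (ABT-199), an inhibitor of the anti-apoptotic protein BCL2, until it grew at 10 times the IC50 of the parental cells. Each resistant line is a single selected derivative of 1 parental line, and nothing in the sources says that the 3 libraries of a group came from separate cultures, so the spread between them may be technical. SUDHL6 and SUDHL16 libraries were made with different kits, on different sequencers, so kit, sequencer and line cannot be told apart.

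Chromosome 13 is acrocentric, so nearly all of its protein-coding genes lie on the long arm, and neighbouring genes there mostly have unrelated functions. Some neighbours start close together on opposite strands and share a promoter region. In B-cell lymphomas the long arm is known for the MIR17HG locus, the host of the miR-17 to 92 cluster of microRNAs.

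Library totals were 33992784 to 40885665 counts in SUDHL6 and 4131927 to 22068221 in SUDHL16. The shallowest library, parental SUDHL16 replicate 2, also stood apart, with 55.4% of its counts on protein-coding genes and 31.9% on identifiers that were not matched to the annotation, and the medians and calls in SUDHL16 are given with and without it. The members held 2.06% to 2.08% of the counts in the parental SUDHL6 libraries and 1.86% to 1.88% in the resistant ones, while mitochondrially encoded genes held 5.60% to 5.62% and 6.34% to 6.63%. The 6 B-cell markers MS4A1, CD79A, CD79B, PAX5, CD22 and BCL6 summed to 3986 to 4287 CPM in SUDHL6, and the summed T-cell, myeloid and erythroid markers stayed at or under 0.223 CPM. In SUDHL16 the B-cell markers summed to 1875 to 4478 CPM, the erythroid markers to 15.6 to 106 CPM in parental and 0 to 12.8 CPM in resistant libraries, and the T-cell markers to 1.26 to 4.36 and 11.6 to 14.1 CPM. The myeloid markers summed to at most 4.36 CPM there, and the epithelial and fibroblast markers to at most 2.66 CPM in any library of either line. The part of these other markers in the SUDHL16 results was not tested.

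In resistant SUDHL6 cells the members from MZT1 to the end of the chromosome were mostly lower than in parental cells, and those before it were not. Over all 162 members the median log2 ratio of resistant to parental was -0.10, against -0.01 over the 9292 protein-coding genes of the other chromosomes that reached the minimum. All 162 passed edgeR's filter on low counts. By edgeR's quasi-likelihood test with an adjusted p under 0.05 and at least a 1.5-fold change, 22 members were lowered and 6 raised, where 4.65% of all 16662 genes tested were lowered and 4.31% raised. Among the 9292 genes of the other chromosomes, 269 were lowered and 201 raised. These counts come from the contrast on which the chromosome was selected and nothing is read from them. All 3 resistant libraries lay below all 3 parental ones for 87 members and above them for 32, where the shares over all 9461 genes were 31.9% and 27.7%.

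Along the chromosome the members fell into 3 stretches, whose borders were placed at 70 and 100 Mb after the values had been seen. The proximal stretch, from MPHOSPH8 to PCDH9, held 104 members with a median log2 ratio of 0.01 (quartiles -0.11 and 0.10), of which 50 were lower and 54 higher. The middle stretch, from MZT1 to TM9SF2, held 30 members with a median of -0.64, which is 64.2% of the parental level, and all 30 were lower in all 3 resistant libraries than in any parental one. The distal stretch, from TMTC4 to CHAMP1, held 28 members with a median of -0.27, or 83.2% of the parental level, of which 24 were lower. Of the 22 lowered members 0 were proximal, 17 middle and 5 distal. Of the 6 raised members 5 were proximal and 1 distal. The calls and the borders both come from the contrast on which the chromosome was selected, so nothing is read from this split. The minimum averages over the resistant libraries, so a gene can be a member only because it is high there. With the minimum over the parental SUDHL6 libraries, 22 members were called lowered and 3 raised.

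**Figure D1:**
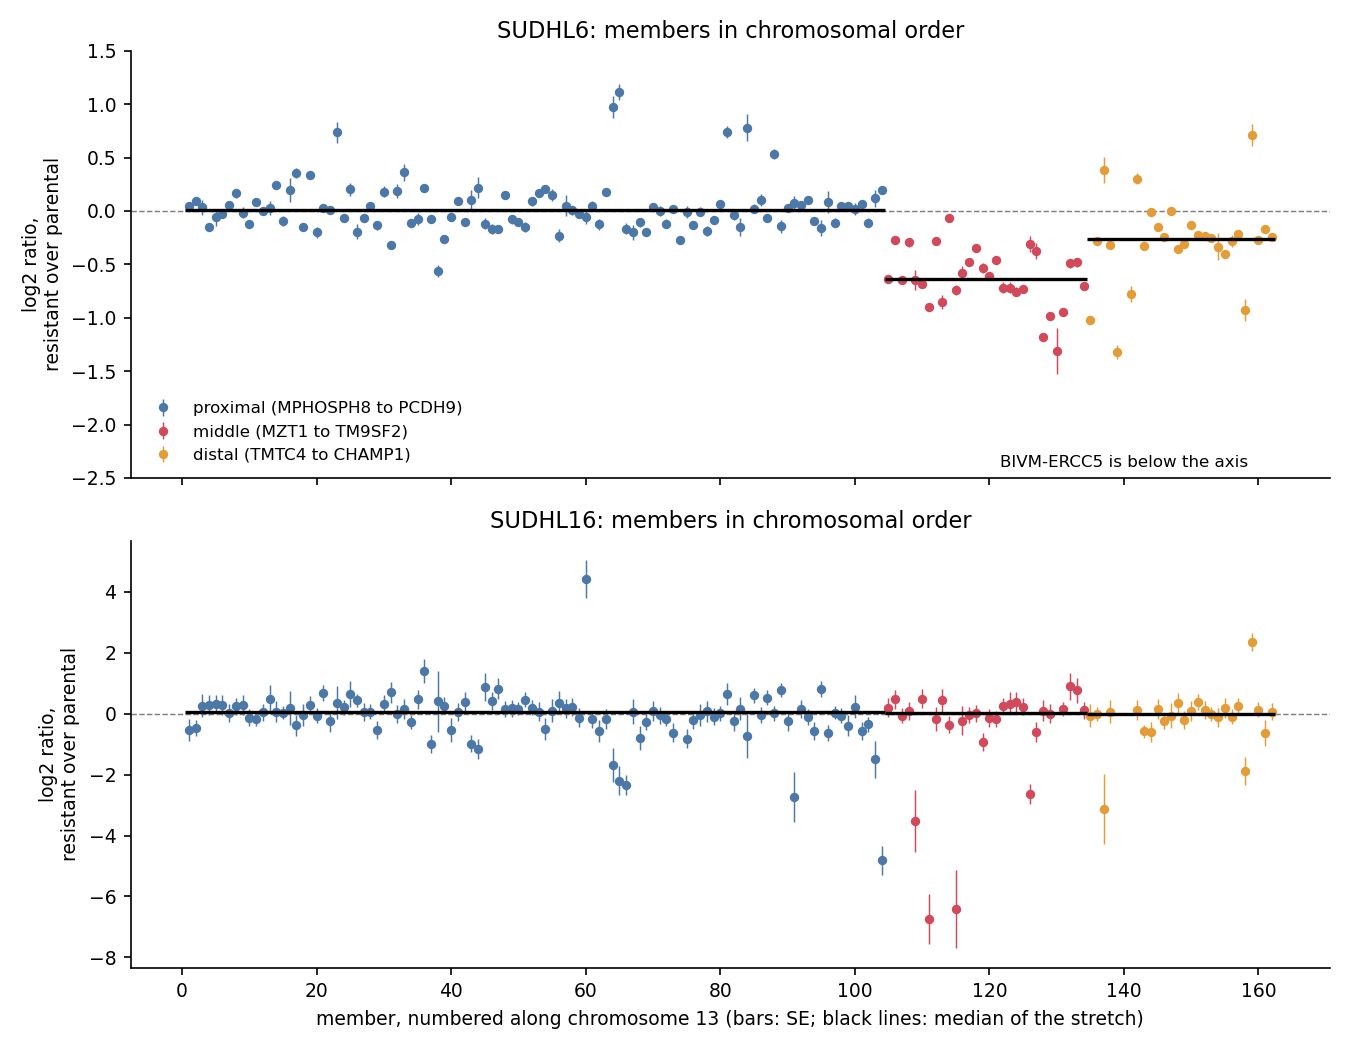
Log2 ratio of resistant to parental (y axis) of each member, numbered along chromosome 13 (x axis), in SUDHL6 (upper panel) and SUDHL16 (lower panel, with a wider y axis). Bars are standard errors derived from the edgeR fit, black lines the median of each stretch, and BIVM-ERCC5 lies below the upper axis. In SUDHL6 the median steps from 0.01 to -0.64 and then to -0.27, and in SUDHL16 the 3 medians lie at 0.04, 0.01 and -0.01.

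The step into the middle stretch lay between PCDH9 and MZT1, which are neighbours among the members. PCDH9 (chr13:66302834-67230445, minus strand), which encodes a protocadherin, a cell adhesion protein, had 221, 228 and 214.7 CPM in the parental and 254.1, 257.7 and 250.5 CPM in the resistant libraries. MZT1 (chr13:72708367-72727629, minus strand), a small subunit of the complexes that seed microtubules, had 189.4, 188.8 and 185.2 CPM and then 119.8, 120.7 and 122.9 CPM. The groups did not overlap for either gene, and they differed in opposite directions. The log2 ratio was 0.20 ± 0.02 for PCDH9 and -0.63 ± 0.02 for MZT1. Here and below, ± after a log2 ratio is an SE derived from the edgeR fit, with n = 3 and 3. No member lay between 80 and 90 Mb.

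Past the border at 100 Mb the ratios were mixed, and no single place of a second step could be given. From 100 to 110 Mb, 9 members were lower and 2 higher. TMTC4 and TPP2, neighbours at the start of the distal stretch, had unlike ratios. POGLUT2 (log2 -1.32) and BIVM (-0.78), which lie beyond TPP2, were again low. TMTC4 (chr13:100603625-100675093), an O-mannosyltransferase of the endoplasmic reticulum, had 77.8, 76.3 and 73.3 CPM in parental and 38.3, 38.3 and 35.4 CPM in resistant libraries. TPP2 (chr13:102596958-102679958), a large cytosolic peptidase, had 255.2, 252.2 and 243.6 CPM and then 208.2, 206.3 and 203.6 CPM. Both were lower in every resistant library, TMTC4 by 1.02 ± 0.04 and TPP2 by 0.28 ± 0.02 on the log2 scale.

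The libraries of a group lay close together in each stretch. Relative to the parental mean of each gene, the median over the middle members was 0.02, 0.01 and -0.02 in the parental libraries and -0.62, -0.62 and -0.61 in the resistant ones. Over the distal members it was -0.26, -0.27 and -0.26 in the resistant libraries, and over the proximal members it lay between -0.01 and 0.01. By windows of 10 Mb, the median log2 ratio stayed between -0.08 and 0.16 up to 70 Mb, was -0.60 from 70 to 80 Mb (18 members) and -0.72 from 90 to 100 Mb (12 members), and was -0.32 from 100 to 110 Mb (11 members) and -0.25 beyond 110 Mb (17 members).

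**Figure D2:**
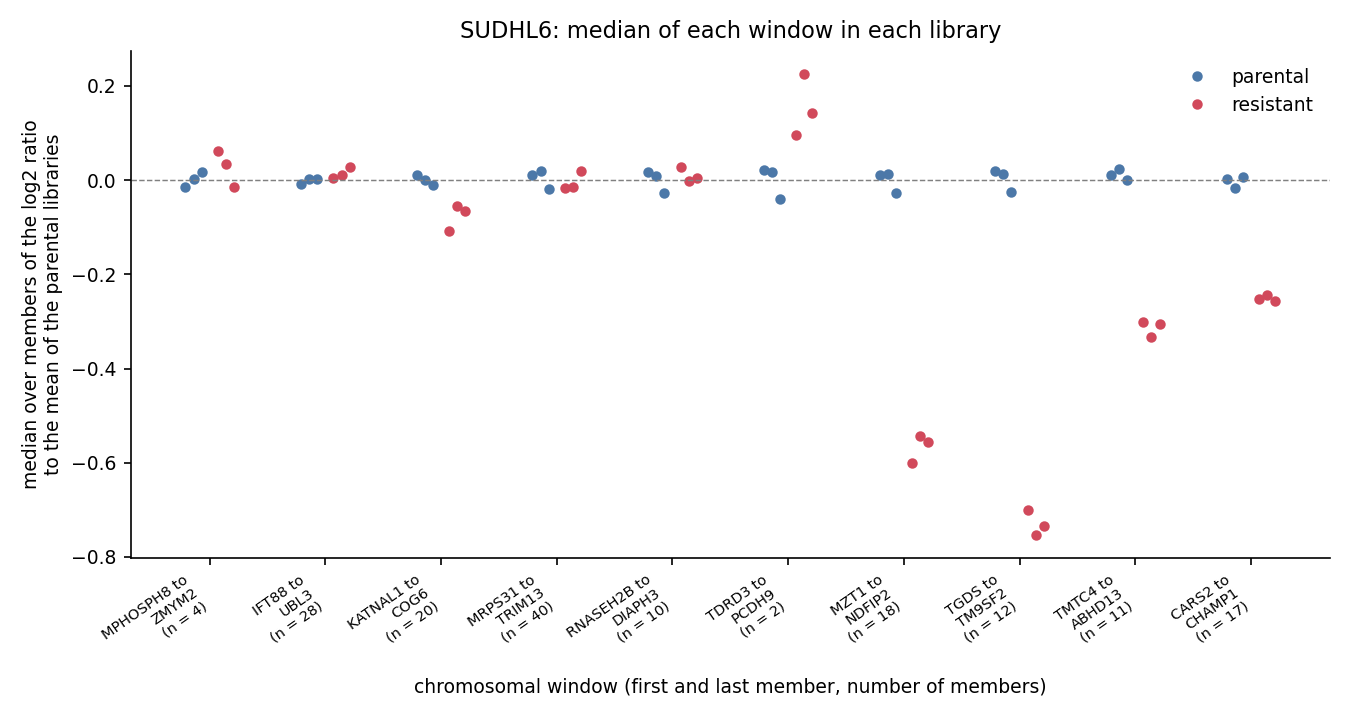
Median over the members of each chromosomal window (x axis, named by its first and last member) of the log2 ratio to the mean of the parental libraries (y axis), 1 point for each SUDHL6 library. The parental libraries lie near 0 in every window, and the resistant libraries lie farthest below them in the 4 windows from MZT1 to CHAMP1, lowest in the window from TGDS to TM9SF2 with a median ratio of -0.72.

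Set among the 284 windows of 10 Mb of the whole genome that held at least 8 genes at the minimum, the window from 90 to 100 Mb had the third lowest median in SUDHL6 and the window from 70 to 80 Mb the fourth lowest. The windows from 100 to 110 Mb and beyond 110 Mb ranked 11 and 13 from the lowest. The lowest window was on chromosome 18 from 30 to 40 Mb (-0.86), followed by chromosome X from 150 to 160 Mb (-0.74, 45 genes). Over whole chromosomes, chromosome 13 had the second lowest median after chromosome 18 (-0.26, 123 genes). A whole chromosome can hide a lower part, such as arm 12p at -0.42, with 101 of 108 genes lower. The quartiles of chromosome 13, at -0.28 and 0.05, still overlapped those of every other chromosome. Whether chromosome 13 differs from the others beyond this description was not tested.

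**Figure D3:**
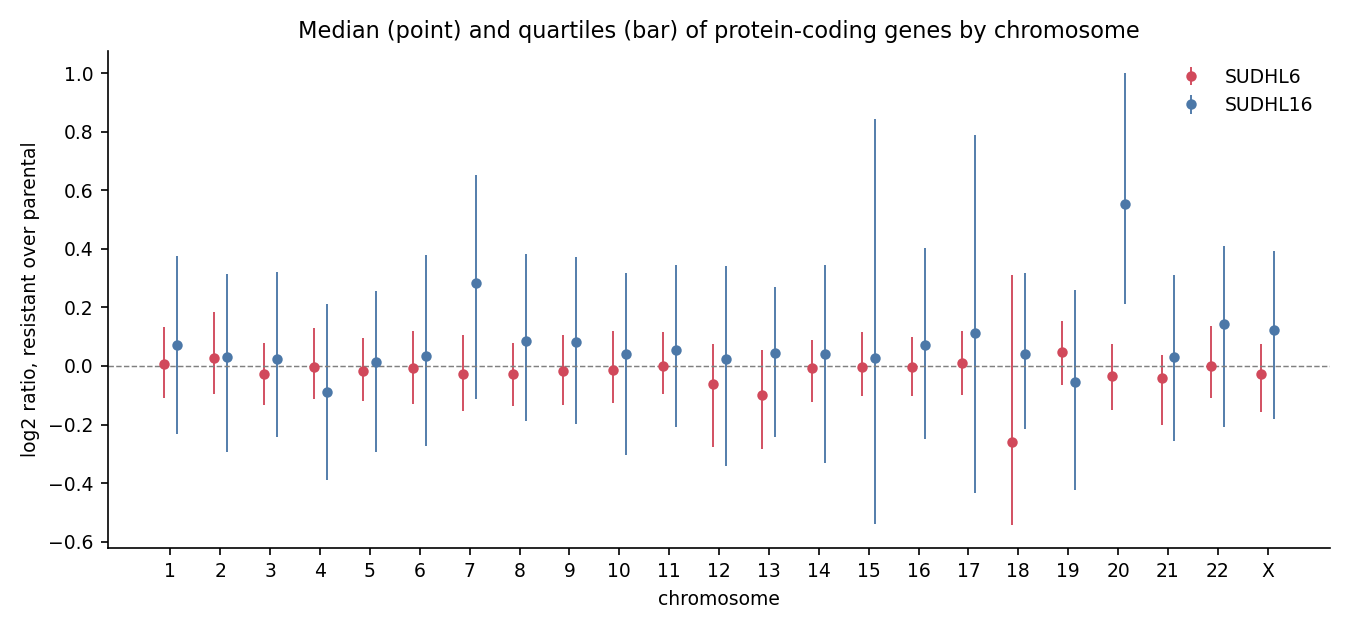
Median log2 ratio of resistant to parental (points, y axis) with quartiles (bars) over the protein-coding genes at the minimum, by chromosome (x axis), in SUDHL6 and SUDHL16. In SUDHL6 chromosome 13 lies at -0.10, the second lowest after chromosome 18, and in SUDHL16 it lies at 0.04, among the others. The genes left out by name are included here.

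The lowest ratios in the middle stretch included those of genes of signalling, nuclear import and the control of glucose transport. IPO5 (chr13:97953658-98024296, plus strand), an importin that carries ribosomal proteins and histones into the nucleus, had 929.6, 927.1 and 906.5 CPM in parental and 460.8, 472.1 and 467.8 CPM in resistant libraries. RAP2A (chr13:97434169-97469128), a small GTPase of the Ras family, had 84.3, 84.8 and 80.3 CPM and then 37.1, 37.3 and 35.6 CPM. The resistant libraries thus held 50.7% of the parental level of IPO5 (log2 -0.98 ± 0.02) and 44.1% of that of RAP2A (-1.18 ± 0.03). FARP1, a guanine nucleotide exchange factor, was lower by 1.31 ± 0.21 on the log2 scale but rested on 340 to 627 counts in parental and 131 to 296 in resistant libraries, and it overlaps STK24, a kinase gene, whose ratio was -0.95 ± 0.03. TBC1D4, which restrains movement of the glucose transporter GLUT4 to the cell surface, had 133.5, 136.2 and 127.7 CPM and then 71.9, 69.9 and 70.7 CPM (log2 -0.90 ± 0.03).

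Within the middle stretch the ratios spread from -1.31 to -0.06, and neighbours could differ. LMO7, which encodes a LIM domain protein of cell junctions, had 465.7, 469.6 and 456.3 CPM in parental and 438.4, 448 and 446.9 CPM in resistant libraries, a log2 ratio of -0.06 ± 0.02, although it lies between UCHL3 (-0.85 ± 0.06) and KCTD12 (-0.74 ± 0.05). MYCBP2, a large ubiquitin ligase, kept 410.8, 421.4 and 406.9 CPM of 513, 538.2 and 527.6 CPM (-0.35 ± 0.02). All of these lay below the parental libraries, LMO7 by the least. Across the 30 middle members the ratio had a Spearman correlation of 0.00 with the CPM level and of -0.12 with exon length, which describes genes from the same libraries and carries no test.

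**Figure D4:**
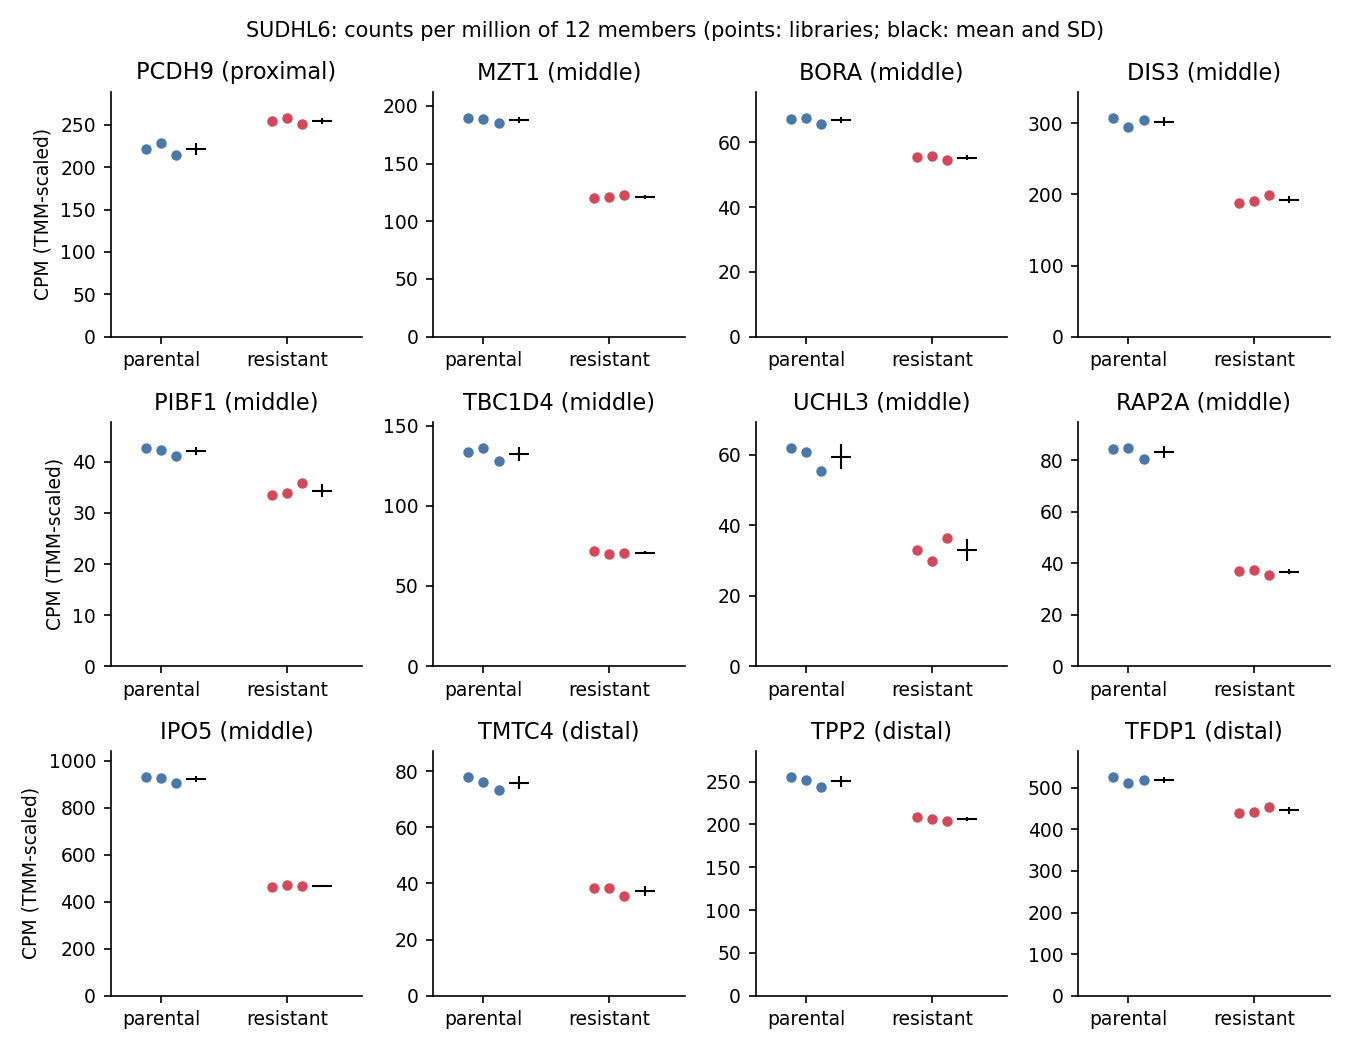
CPM on the TMM scale (y axes, all from 0) of 12 members in each SUDHL6 library (points), with the mean and SD of each group in black, in the order of position. PCDH9 is higher in the resistant libraries, and the other 11 members, from MZT1 to TFDP1, are lower in every resistant library than in any parental one.

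In 3 places of the middle stretch, genes that start less than 1000 bases apart and are read in opposite directions had unequal ratios. MZT1 and BORA (an activator of the mitotic kinase Aurora A), whose starts are 120 bases apart, had log2 ratios of -0.63 ± 0.02 and -0.27 ± 0.03. DIS3, a catalytic subunit of the RNA exosome, and PIBF1, a centrosomal protein, with starts 37 bases apart, had -0.65 ± 0.02 and -0.29 ± 0.04. COMMD6 and UCHL3, a ubiquitin hydrolase, with starts 44 bases apart, had -0.29 ± 0.03 and -0.85 ± 0.06. In each of the 3 pairs both genes were lower, by differing amounts. Unequal ratios were not particular to this stretch. The proximal pair CAB39L and SETDB2 had 0.78 and 0.02, and the distal pair POGLUT2 and BIVM -1.32 and -0.78. Other pairs were close, such as HMGB1 and USPL1 (-0.12 and -0.07). Since the counting is not stated to use strand and DIS3 and BORA overlap at their ends, reads could have been shared between them.

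The promoter windows at these pairs are shown because the paired genes differ in ratio although their starts are adjacent. They are RefSeq windows (GRCh38.p14, plus strand) from 250 bases before to 50 after a start of the plus-strand gene, and those of PIBF1 and UCHL3 also span the annotated start of the partner. Capitals mark GC boxes (GGGCGG or, on the other strand, CCGCCC) and CCAAT boxes (CCAAT or ATTGG).
BORA, chr13:72727673-72727972: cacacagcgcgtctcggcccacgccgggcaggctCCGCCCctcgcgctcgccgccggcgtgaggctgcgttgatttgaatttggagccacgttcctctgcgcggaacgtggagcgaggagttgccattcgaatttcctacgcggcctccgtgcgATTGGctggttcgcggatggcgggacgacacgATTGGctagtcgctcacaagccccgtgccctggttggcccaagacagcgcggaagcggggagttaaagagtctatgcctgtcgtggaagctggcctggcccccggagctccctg
PIBF1, chr13:72781883-72782182: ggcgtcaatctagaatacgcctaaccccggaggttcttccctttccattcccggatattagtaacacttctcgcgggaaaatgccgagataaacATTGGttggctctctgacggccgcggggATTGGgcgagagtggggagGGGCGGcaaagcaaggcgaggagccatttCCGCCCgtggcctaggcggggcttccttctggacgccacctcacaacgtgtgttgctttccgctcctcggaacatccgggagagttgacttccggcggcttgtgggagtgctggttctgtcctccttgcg
UCHL3, chr13:75549252-75549551: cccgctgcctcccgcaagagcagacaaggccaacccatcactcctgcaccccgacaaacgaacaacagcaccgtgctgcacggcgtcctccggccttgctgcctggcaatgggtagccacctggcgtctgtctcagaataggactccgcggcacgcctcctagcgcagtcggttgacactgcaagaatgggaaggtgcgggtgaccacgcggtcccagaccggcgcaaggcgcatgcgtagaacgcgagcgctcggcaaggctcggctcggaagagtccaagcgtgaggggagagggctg

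The BORA window holds 1 GC box and 2 CCAAT boxes, that of PIBF1 2 and 2, and that of UCHL3 0 of either. A second RefSeq window of UCHL3, at chr13:75549541-75549840 and not printed, holds 2 GC boxes and 1 CCAAT box. No capital run overlaps another. Of the 142 members with a RefSeq window, 64.8% had a GC box in the first one listed, against 44.95% of all 35116 windows, and 36.6% had a CCAAT box against 34.6%. These sets are unlike, since all windows include further starts and genes not expressed here. Their median GC content was 66% and 58.7%. No matched set from other chromosomes was compared. By stretch the share with a GC box was 66.7% (proximal), 61.5% (middle) and 61.5% (distal), and the share with a CCAAT box was 32.2%, 50% and 38.5%, over 90, 26 and 26 windows. A match says only that these letters occur in the window.

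Distal members mostly had smaller ratios. TFDP1, the partner of E2F transcription factors at cell cycle genes, had 525.4, 511.8 and 517.7 CPM in parental and 439, 442.7 and 454.6 CPM in resistant libraries (log2 -0.22 ± 0.02). ARGLU1, a nuclear protein tied to splicing, had 630.1, 616 and 630.1 CPM and then 496, 495 and 505.6 CPM (-0.33 ± 0.02). CUL4A, the scaffold of a ubiquitin ligase, was at -0.26 ± 0.02 and CHAMP1, which acts in chromosome alignment and is the last member of the chromosome, at -0.25 ± 0.02. These 4 genes were lower in every resistant library and none reached a 1.5-fold difference.

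The distal members farthest from the others were the BIVM-ERCC5 model, POGLUT2, TMTC4, TMEM255B (-0.93 ± 0.11) and BIVM (-0.78 ± 0.07) on the lower side and RASA3 on the higher one. CCDC168 (0.39 ± 0.12) and ERCC5 (0.30 ± 0.05) also had ratios above 0, and that of ING1 was 0.00 ± 0.04. POGLUT2, which adds glucose to repeats in Notch receptors, had 25.5, 25 and 26.2 CPM and then 10, 11 and 9.61 CPM (-1.32 ± 0.07). RASA3, a GTPase-activating protein for Ras and Rap, had 9.9, 7.76 and 8.19 CPM and then 14.2, 15.5 and 12.6 CPM (0.71 ± 0.10). RASA3 had the highest ratio of the members beyond PCDH9. BIVM-ERCC5, a read-through model that spans BIVM and ERCC5, a DNA repair nuclease gene, had the lowest fitted ratio of all members (-4.93 ± 1.33), from counts of 1324, 478 and 0 in parental and 0, 0 and 66 in resistant libraries. Its counts varied as much within the parental group as between groups. Summed over BIVM, BIVM-ERCC5 and ERCC5, the level was 204.2 ± 0.753 CPM (SD, n = 3) in parental and 196.5 ± 3.63 CPM in resistant libraries, a log2 ratio of -0.06. Summed over BIVM and BIVM-ERCC5 alone, it was 84.3, 67.6 and 58.4 CPM and then 30.6, 31.9 and 31.2 CPM, a log2 ratio of -1.17. How reads were divided among these overlapping models was not tested.

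Most proximal members had levels that were close between groups. LCP1, the actin-bundling protein L-plastin of blood cells, had 2171, 2130 and 2110 CPM in parental and 2176, 2163 and 2161 CPM in resistant libraries (0.02 ± 0.01). TPT1, a translationally controlled protein, was at 0.04 ± 0.01, RPL21, a ribosomal protein, at 0.01 ± 0.01, and HMGB1, a chromatin protein, at -0.12 ± 0.01. The groups overlapped for LCP1 and RPL21 but not for TPT1 and HMGB1. ZMYM2 (-0.15 ± 0.03), a zinc finger protein of repressor complexes, and CKAP2 (0.04 ± 0.03), a spindle protein, were also within 0.2 of 0 on the log2 scale. The proximal member with the lowest ratio was B3GLCT, a glycosyltransferase gene named after its values were seen, with 23.8, 22.4 and 23.4 CPM and then 15.8, 15.8 and 15.6 CPM (-0.56 ± 0.06).

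The highest ratios were proximal. Some of these genes had low levels and could pass the minimum through their resistant libraries, though LACC1 was above 5 CPM in every parental library. Of the 6 raised members, 3 were still called with the minimum over the parental libraries. With a minimum of 20 CPM only 1 member was called raised and 17 lowered. LACC1, a laccase domain enzyme of macrophages and other immune cells, had 7.76, 7.38 and 7.28 CPM in parental and 15.8, 15.4 and 17.2 CPM in resistant libraries (1.11 ± 0.08). CCDC122, read from the opposite strand at the same locus, had 5.23, 4.81 and 4.4 CPM and then 8.72, 9.53 and 10.1 CPM (0.98 ± 0.10). The groups of both genes stood clear of each other, but the 2 genes overlap and reads could have been shared. CAB39L (0.78 ± 0.13), RCBTB2 (0.74 ± 0.05) and RASL11A (0.74 ± 0.10) followed, of which CAB39L and RASL11A were near the minimum, with 143, 119 and 184 counts of CAB39L in parental and 250, 287 and 281 in resistant libraries. Just inside the minimum lay ADPRHL1 (mean 5.04 CPM, log2 ratio -0.33) and CAB39L (5.55 CPM), and just outside it LHFPL6 (4.73 CPM, 2.49) and DHRS12 (4.26 CPM, -0.07).

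Grouped by function, the members outside the proximal stretch are given apart from the rest of their list. Of 19 members in translation, folding and membrane traffic, 12 were proximal. The 7 others, IPO5, RAP2A, STK24, DNAJC3, TM9SF2, TMCO3 and TMEM255B, were all lower, with a median of -0.93. The median of the whole list was -0.07. Of these 7, 5 are middle and 2 distal members, and the list is broad, holding a small GTPase and a kinase. Their ratios thus cannot be told apart from those of their position. Of 25 members in transcription, chromatin and nuclear RNA, the 8 outside the proximal stretch were all lower, with a median of -0.42, among them DIS3 and the transcription factor KLF12 (-0.68 ± 0.03). The median of all 25 was -0.12, with 17 lower and 8 higher. ELF1, a proximal gene for an ETS transcription factor of lymphocytes, had the highest ratio of the list, 0.21 ± 0.02.

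Of 18 members in ubiquitin and protein turnover, the 8 middle and distal ones were all lower, with a median of -0.38. Of 15 members in DNA replication, repair and cell cycle, the 8 middle and distal ones had a median of -0.17. RFC3, a subunit of the clamp loader of DNA replication, is proximal and was at -0.10 ± 0.02. Of 8 mitochondrial proteins, 7 are proximal and the list's median was 0.02. CARS2, the mitochondrial cysteinyl-tRNA synthetase, is the distal one and was at -0.24 ± 0.03, while MRPS31, of the mitochondrial ribosome, and MICU2, of the calcium uniporter, were at 0.16 ± 0.04 and 0.08 ± 0.04. Of 10 blood and immune cell genes, 6 were lower and 4 higher, with a median of -0.10. Among them, LACC1, RASA3 and KCTD12 are described with their neighbours. RUBCNL, an autophagy regulator, was at -0.27 ± 0.02 and ALOX5AP, which serves leukotriene synthesis, at 0.21 ± 0.03.

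Ratios of the genes of chromosome 13 that were not members come from the same SUDHL6 contrast, so they are a description and no separate support. Of the 147 protein-coding genes under the minimum, 28 passed edgeR's filter on low counts, with medians of 0.03 in the proximal stretch (17 genes), -0.65 in the middle one (3) and -0.32 in the distal one (8). Their ratios ran from -1.93 to 4.25, from -2.27 to -0.25 and from -0.62 to 0.04. The highest, of DNAJC15, rested on 9, 0 and 7 counts in parental and 112, 109 and 113 in resistant libraries. MIR17HG, the noncoding host of the miR-17 to 92 cluster, chosen after its values were seen, lies in the middle stretch at chr13:91347686-91397592 and had 62.3, 59.9 and 61.6 CPM in parental and 16.7, 17 and 19.5 CPM in resistant libraries (log2 -1.79). In SUDHL16 it had 248.5, 183.6 and 252.4 CPM and then 144.7, 125.5 and 66.4 CPM (-1.03, adjusted p = 0.134, edgeR). The resistant libraries of both lines lay below the parental ones. The mature microRNAs were not measured, and their RefSeq sequences (GRCh38.p14) are given because they are what this transcript carries, with the seed, bases 2 to 8, in capitals.
hsa-miR-17-5p: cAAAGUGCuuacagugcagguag
hsa-miR-20a-5p: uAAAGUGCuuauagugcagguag
hsa-miR-18a-5p: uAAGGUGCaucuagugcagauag
hsa-miR-19a-3p: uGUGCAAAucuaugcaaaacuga
hsa-miR-19b-3p: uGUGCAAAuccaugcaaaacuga
hsa-miR-92a-3p: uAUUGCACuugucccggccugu

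The sequences of miR-17-5p and miR-20a-5p share 1 seed, those of miR-19a-3p and miR-19b-3p another, and miR-18a-5p and miR-92a-3p have a seed each.

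In SUDHL16 the same genes were measured in another pair of parental and resistant cells, and there a test is possible. Of the 162 members, 157 passed the filter, and their median log2 ratio was 0.04, against 0.06 over the genes of the other chromosomes. The medians of the proximal, middle and distal stretches were 0.04, 0.01 and -0.01. Without parental SUDHL16 replicate 2 they were -0.03, -0.11 and -0.12, and the median of all members was -0.09. Per library, the median over 29 middle members was 0.24, -0.34 and 0.02 in the parental and -0.30, 0.13 and 0.16 in the resistant libraries, so the groups overlapped. The standard error of a member's log2 ratio had a median of 0.31 in SUDHL16 and 0.04 in SUDHL6, so a difference the size of most SUDHL6 ratios was not detectable per gene at this spread. For 13 of the 157 members the groups were apart in both lines and in opposite directions, where the share over all 9230 genes at the minimum and tested in SUDHL16 was 8.92%. The difference between the lines was not tested.

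By edgeR's test 6 members were lowered in SUDHL16 and 2 raised, where 2.10% of all 15708 genes tested were lowered and 3.20% raised. Among the 9066 protein-coding genes of other chromosomes that reached the minimum and were tested, 163 were lowered and 343 raised. PCDH9, which flanks the SUDHL6 step, had 73.7, 73 and 57.8 CPM in parental and 1.14, 1.88 and 4.13 CPM in resistant libraries, a log2 ratio of -4.81 ± 0.47 (adjusted p = 0.00113, edgeR). TBC1D4 had 593, 46 and 390 counts and then 0, 3 and 11, which over the group totals is 0.865% of the parental share (95% exact interval 0.471% to 1.46%, counting error only), with an adjusted p of 0.00308 by edgeR. KCTD12, which encodes an auxiliary subunit of GABA-B receptors, had 41, 19 and 26 counts and then 0, 0 and 2, or 1.48% (0.176% to 5.50%), with an adjusted p of 0.0273 by edgeR. Both genes belong to the middle stretch, and in resistant SUDHL6 cells their log2 ratios were -0.90 and -0.74. KCTD12 lost its call when any 1 library was left out, except parental replicate 2, and with no filter on low counts (adjusted p = 0.0502 to 0.143).

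UGGT2, a folding sensor of the endoplasmic reticulum, had 95.1, 98.5 and 88.3 CPM in parental and 22, 14 and 9.27 CPM in resistant SUDHL16 libraries (log2 -2.64 ± 0.33, adjusted p = 0.00366, edgeR). TSC22D1, a leucine zipper protein induced by TGF-beta, fell by 2.33 ± 0.33 on the log2 scale (adjusted p = 0.00596, edgeR). LACC1 had 11.7, 14.8 and 15.8 CPM and then 1.54, 4.61 and 3.02 CPM (log2 -2.20 ± 0.48, adjusted p = 0.0363, edgeR). The groups of all 3 were apart, and LACC1 lost its call when any 1 library but parental replicate 2 was left out (adjusted p = 0.072 to 0.145).

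The raised members in SUDHL16 were RGCC and RASA3. RGCC, a regulator of the cell cycle and of complement responses, had 36, 0 and 19 counts in parental and 377, 537 and 754 in resistant libraries (log2 4.42 ± 0.62, adjusted p = 0.00573, edgeR), whereas in SUDHL6 it was at -0.06 ± 0.06. RASA3 had 7.5, 8.27 and 7.2 CPM and then 32.6, 33.7 and 51 CPM (2.36 ± 0.29, adjusted p = 0.00308, edgeR). RASA3 was thus higher in all resistant libraries of both lines. Without parental SUDHL16 replicate 2, the log2 ratios were -4.74 for PCDH9, -6.94 for TBC1D4, -5.63 for KCTD12, -2.59 for UGGT2, -2.49 for TSC22D1, -2.16 for LACC1, 4.12 for RGCC and 2.42 for RASA3, and all 8 were called. Without that library 4 more members were called lowered, for 10 lowered and 2 raised in all. The share called over all genes without that library was not compared. The edgeR adjusted p-values of these 4 were 0.0297 for HSPH1 (log2 -1.12), 0.023 for NBEA (-1.12), 0.0456 for MAB21L1 (-1.25) and 0.04 for TMEM255B (-1.92).

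The 5 members that did not pass the filter in SUDHL16 had few or no counts in most of its libraries. POGLUT2 and BIVM-ERCC5 had 0 counts in all 6 libraries, which allows up to 3 counts in each. RUBCNL had 7 counts in parental replicate 2 and 0 in the other libraries, against 8649 to 11689 in SUDHL6. BIVM had 17, 8 and 8 counts in parental and 0 in every resistant library, and FARP1 had 6, 68 and 0 and then 7, 5 and 5. The 68 counts of FARP1 were in parental replicate 2, the library that stood apart.

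Members beyond PCDH9 also differed in level between the 2 parental lines. With each line's CPM scaled within its own fit, the log2 ratio of parental SUDHL6 to parental SUDHL16 had a median of 0.11 over 9066 genes of other chromosomes and 0.10 over the proximal members. It was 1.34 over 29 middle members, 25 of which were higher in SUDHL6, and 1.42 over 25 distal members, 20 of which were higher. Without parental SUDHL16 replicate 2 the middle and distal medians were 1.48 and 1.42. Among 280 windows of the genome the 4 windows of chromosome 13 from 70 Mb on ranked 2, 9, 1 and 5 from the highest, in the order of position. IPO5, as an example, had 906.5 to 929.6 CPM in parental SUDHL6 and 282.2, 164.3 and 255 CPM in parental SUDHL16.

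Between the resistant derivatives the middle median was smaller, at 0.80, and the distal one was 1.24, with 0.14 over the proximal members. In resistant SUDHL6 cells the middle members were thus lower than in their parental cells but mostly still above resistant SUDHL16, with 22 of 29 higher. The comparison of the parental lines shares the parental SUDHL6 libraries with the SUDHL6 ratios above, so these values and those ratios are not independent, and line cannot be told apart from kit and sequencer.

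**Figure D5:**
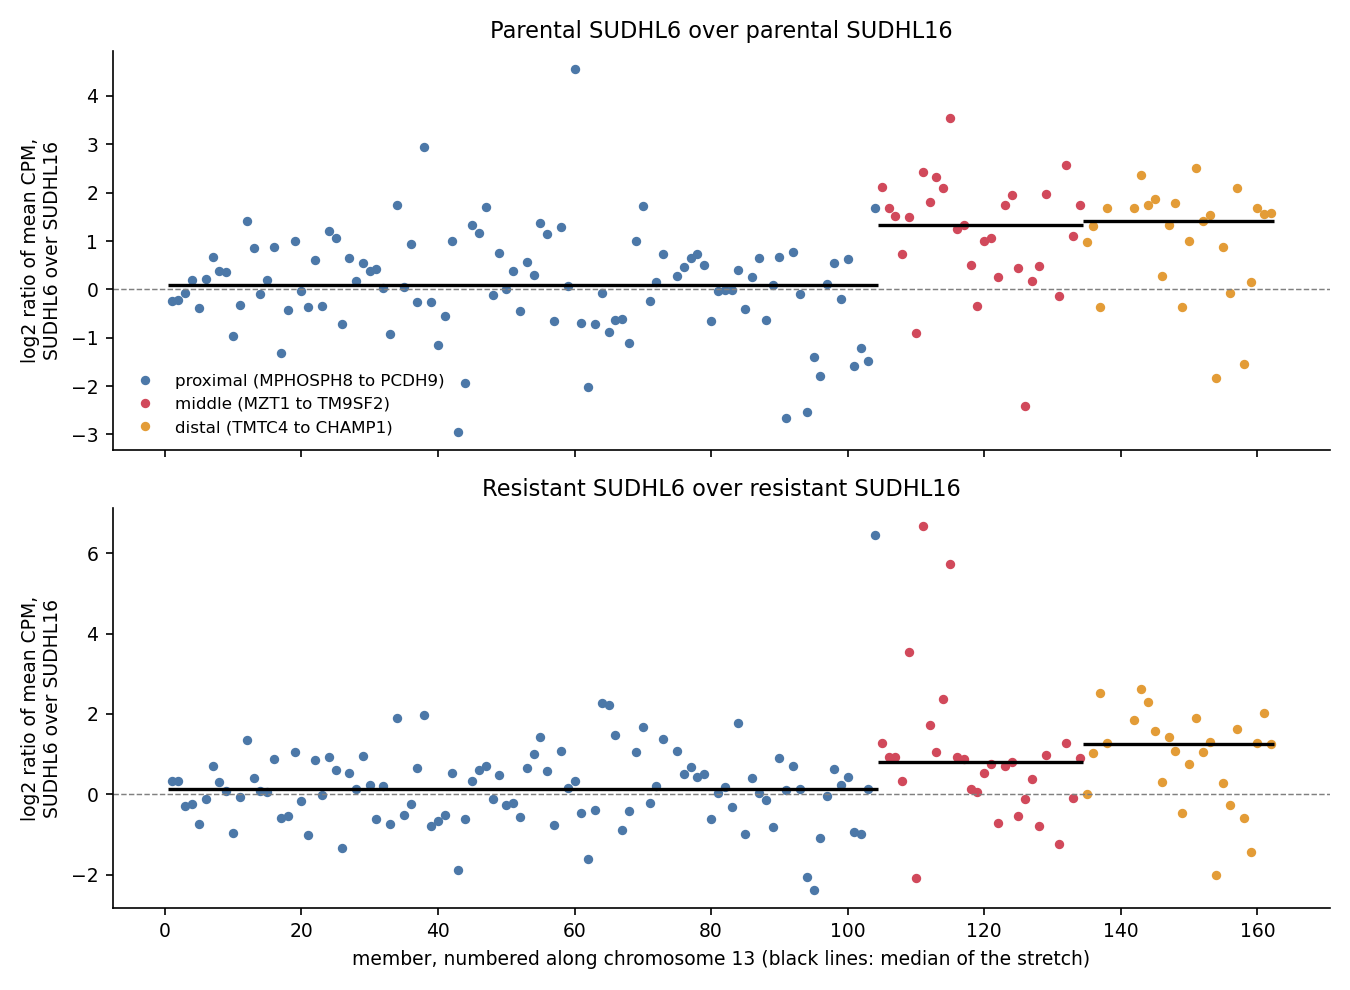
Log2 ratio of mean CPM, SUDHL6 over SUDHL16 (y axes), of each member tested in both lines, numbered along chromosome 13 (x axis), between the parental lines (upper panel) and the resistant lines (lower panel). Black lines are the median of each stretch, which steps from 0.10 to 1.34 and 1.42 between the parental lines and from 0.14 to 0.80 and 1.24 between the resistant ones.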

How the data were processed

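The deposited files hold whole-number counts of reads per gene for 12 libraries, which the authors made from reads trimmed with Trim Galore and aligned to GRCh38 with HISAT2, with StringTie and edgeR also named in the submitters' processing notes. The counting tool, its annotation and its use of strand are not given in the sources used here. Identifiers were matched to GENCODE 44 (56558 of 60675). The counts of each line were fitted alone with edgeR 4.0.16 (filterByExpr, TMM, two-sided quasi-likelihood test, Benjamini-Hochberg adjustment over all genes) in R 4.3.3, and a call needs an adjusted p under 0.05 and a 1.5-fold change. The SE of a log2 ratio was derived as its absolute value divided by the square root of the quasi-likelihood F statistic. DESeq2 1.42.0 was an alternative. CPM in the text are on the TMM scale, except for the minimum of 5, and medians per library use a pseudocount of 0.5 CPM. The script was tested on simulated counts.

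Members, gene lists and tests were chosen with earlier results of these data known. Genes named are, by rule, the member with the highest mean CPM in each 10 Mb window, the 6 highest and 6 lowest SUDHL6 ratios, the 5 smallest SUDHL16 adjusted p, the 3 members with the highest mean CPM of each list and the 2 genes on each side of the minimum. Others, such as those next to the borders of the stretches, in divergent pairs or called in SUDHL16, were named after their values were seen. Depth differed between lines, and intervals cover counting error only. Alternatives were other scalings, filters and minima, and leaving out each library. Of the B-cell markers listed, 1 is not reported here and is not in the marker sums.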

Additional observations from a re-analysis of the deposited data

Results flagged for a closer look

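For 13 of the 157 members tested in SUDHL16 (8.28%), every resistant library lay on one side of every parental library in SUDHL6 and on the opposite side in SUDHL16, against 8.92% of all 9230 genes at the minimum and tested there. The difference between the lines was not tested for any of them. The 3 among them that the rule for named genes covers are PCDH9, LACC1 and CCDC122. For PCDH9 the log2 ratio in SUDHL6 exceeded that in SUDHL16 by 5.01 (0.20 against -4.81). For LACC1 the difference was 3.31 (1.11 against -2.20), and for CCDC122, its overlapping neighbour, it was 2.67 (0.98 against -1.69, where the SUDHL16 change missed the threshold with an adjusted p of 0.139 by edgeR).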

How the results depend on the processing

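The SUDHL6 median over all members (-0.10) moved by less than the spread between libraries under every alternative and lay between -0.11 and -0.09 when 1 library was left out. The 4 SUDHL16 medians also moved by less than that spread. The proximal median in SUDHL6 was 0.026 with upper-quartile scaling and -0.00 to 0.02 with 1 library left out. The middle median lay between -0.66 and -0.62 with 1 library left out. The distal median, whose libraries differed least, was -0.25 with upper-quartile scaling, -0.26 on library totals, -0.26 and -0.25 with a minimum of 1 and 20 CPM, -0.28 with the minimum over the parental libraries, -0.28 without overlapping genes (added after seeing the data) and -0.28 to -0.26 with 1 library left out. The 28 calls in SUDHL6 (22 lowered, 6 raised) became 18 with a minimum of 20 CPM (17 lowered, 1 raised) and 17 with glmTreat. They became 25 with the minimum over the parental libraries (22 lowered, 3 raised), and 26 to 29 with 1 library left out. The 8 calls in SUDHL16 became 19 with DESeq2, 5 with a minimum of 20 CPM and 6 to 12 with 1 library left out, the 12 without parental replicate 2. The cause was not tested, apart from the fewer genes under a higher minimum. The shares called over all genes under these alternatives were not compared, so the changes in calls may not be particular to chromosome 13. Of the values of single genes, 438 in SUDHL6 and 338 in SUDHL16 stayed within the spread or on their side of the threshold, 2 and 1 moved beyond the spread, and 11 calls of LACC1 and KCTD12 in SUDHL16 were lost. No paired analysis was possible because the labels give no replicate numbers.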
